A study of Mus musculus with 6 samples.

Results

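The EGF receptor family and its ligands were followed as a set of 10 genes listed by name, namely the receptors Egfr, Erbb2 and Erbb3 and the ligands Areg, Ereg, Hbegf, Tgfa, Btc, Epgn and Nrg1. All 10 were present among the 18512 entries of the deposited count table, and 9 of them were among the 13353 genes that averaged 20 normalized counts or more, which defined the genes tested. The samples were cultures of NMuMG, a mouse mammary epithelial line that is widely used to study the epithelial to mesenchymal transition. RNA-seq was carried out on 3 groups of 2 biological replicates, which received the solvent DMSO as control, 5 ng/ml TGF-β, or the same dose of TGF-β together with 2APB, a compound known to act on store-operated calcium entry, at 50 uM. No genetic change was made in any group, and each group is the same unsorted line. No group received 2APB alone, so whether a difference between the treated groups depends on TGF-β cannot be told. The timing of 2APB relative to TGF-β differs between the descriptions in the paper's results and methods, so no time is given here.

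EGF family ligands are made as membrane-bound precursors, and proteases of the ADAM family cut them to release the soluble form. Areg, Ereg, Hbegf, Tgfa, Btc and Epgn bind EGFR, some of them also ERBB4, while neuregulins such as Nrg1 bind ERBB3 and ERBB4. Bound receptors pair with each other. ERBB2 has no known ligand of its own and serves as the preferred partner, whereas ERBB3 has very weak kinase activity and signals mainly through its partner to PI3 kinase. In the mammary gland amphiregulin, encoded by Areg, is known as the ligand that drives duct growth, and the receptors pass their signal through adaptors and RAS to the kinase ERK and its target genes.

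The libraries held 71840570 to 79473182 counts, and every deposited value was even. Replicates of the treated groups lay further apart than those of DMSO, with an SD over genes of the log2 difference between replicates of 0.57 (TGF-β), 0.78 (TGF-β+2APB) and 0.33 (DMSO). The treated pairs stood in the other order by a chi-square of halved counts per degree of freedom. It was 61.5 (TGF-β), 14.5 (TGF-β+2APB) and 3.39 (DMSO). Of the luminal epithelial markers (Krt8, Krt18, Krt19, Epcam, Cdh1 and Cldn4) all 6 passed the filter, and their summed level ran from 528339 to 562769 normalized counts under DMSO, from 703365 to 825638 under TGF-β and from 1309535 to 1376657 under TGF-β+2APB. That sum came mostly from Krt8 and Krt18, while Epcam stood at 52 to 158 counts in all libraries and Cldn4 at 2 and 6 counts under DMSO. Against DMSO, Krt8, Krt18 and Cldn4 rose and Krt19, Epcam and Cdh1 fell under both treatments, with a median log2 difference over the list of -0.06 under TGF-β and 0.29 under TGF-β+2APB. The calls for Epcam were lost without DMSO replicate 1 (FDR 0.054 and 0.0908) or DMSO replicate 2 (0.1 and 0.208), and the latter call also without TGF-β+2APB replicate 1 (0.12). Of the 6 basal and myoepithelial markers, Krt5, Krt14 and Trp63 stood at 6 counts or fewer and Oxtr at 12 or fewer. That list summed to 14486 and 14786 normalized counts under DMSO, 4506 and 4300 under TGF-β, and 1129 and 1754 under TGF-β+2APB, nearly all of it Mylk, which fell under both treatments. Acta2 was higher under both, by calls lost without DMSO replicate 1 (FDR 0.0515 under TGF-β) or DMSO replicate 2 (0.104 and 0.0658). Further mammary genes were looked up after the data had been seen. The casein gene Csn3 stood at 0 to 50 counts and Elf5 at 2 to 18. Gata3 stood at 28 to 170 counts and Krt7 at 3106 to 7860, while Csn2, Wap and Lalba were not among the entries. Hepatocyte markers were prominent although the label names a mammary line. That list (Alb, Apoa1, Fga, Ttr, Serpina1a and Hnf4a) summed to 113548 to 122612 normalized counts under DMSO, 14437 to 19845 under TGF-β and 8622 to 11572 under TGF-β+2APB. Of the fibroblast list Col1a2 and Dcn stood at 6 counts or fewer and Lum was not among the entries, while the list summed to 142 to 163, 2339 to 2345 and 2456 to 3102 in the same order. The leukocyte list, of which Cd3e stood at 0 in all libraries but one, summed to 669 to 861 under DMSO and 278 to 384 under TGF-β, and to 364 and 3401 in TGF-β+2APB replicates 1 and 2. Endothelial and adipocyte lists summed to at most 49.3 and 88.8. In bulk RNA, fewer cells of a kind and less RNA per cell cannot be told apart, and the p-values below measure the spread between the sequenced replicates.

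With TGF-β alone, 6 of the 9 tested members changed, 4 upward (Egfr, Areg, Hbegf, Nrg1) and 2 downward (Erbb3, Btc). Over all tested genes 41.5% were called in this comparison (21.8% higher and 19.7% lower), by edgeR's quasi-likelihood test at a Benjamini-Hochberg false discovery rate (FDR) of 0.05 or less. With TGF-β+2APB against DMSO, 8 of 9 changed, the same 4 upward and Erbb2, Erbb3, Tgfa and Btc downward, beside 52.8% of all genes (25.6% higher and 27.2% lower). Between TGF-β+2APB and TGF-β alone, 4 of 9 changed, Egfr upward and Erbb2, Tgfa and Btc downward, beside 17.5% of all genes (6.58% higher and 10.9% lower). The median log2 difference of the 9 members was -0.01, -0.70 and -0.28 in these comparisons, where all tested genes had medians of -0.01, 0.00 and 0.00. The first comparisons share the DMSO libraries, and the last shares libraries with both. Libraries of the groups were separate, without overlap, for 8 of 9, 9 of 9 and 6 of 9 members in the 3 comparisons, beside 72.5%, 86.0% and 58.0% of all genes. At an FDR of 0.01 or less 6, 8 and 1 members were called, beside 25.2%, 36.6% and 4.5% of all genes, and with a log2 difference of at least 1 in size 4, 4 and 1, beside 15.9%, 22.7% and 6.29%. In the last comparison most of the calls were lost when any 1 of 4 libraries was left out. The DMSO libraries are not part of that contrast and enter it mainly through the spread, which was estimated over all 3 groups together. Without DMSO replicate 1, DMSO replicate 2, TGF-β+2APB replicate 1 or TGF-β+2APB replicate 2 the count was 1 of 9, and the gene called was Btc each time. Over all genes the share called in that comparison fell as well, from 17.5% to 6.46%, 6.26%, 7.38% and 9.54% without these libraries in turn.

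**Figure D1:**
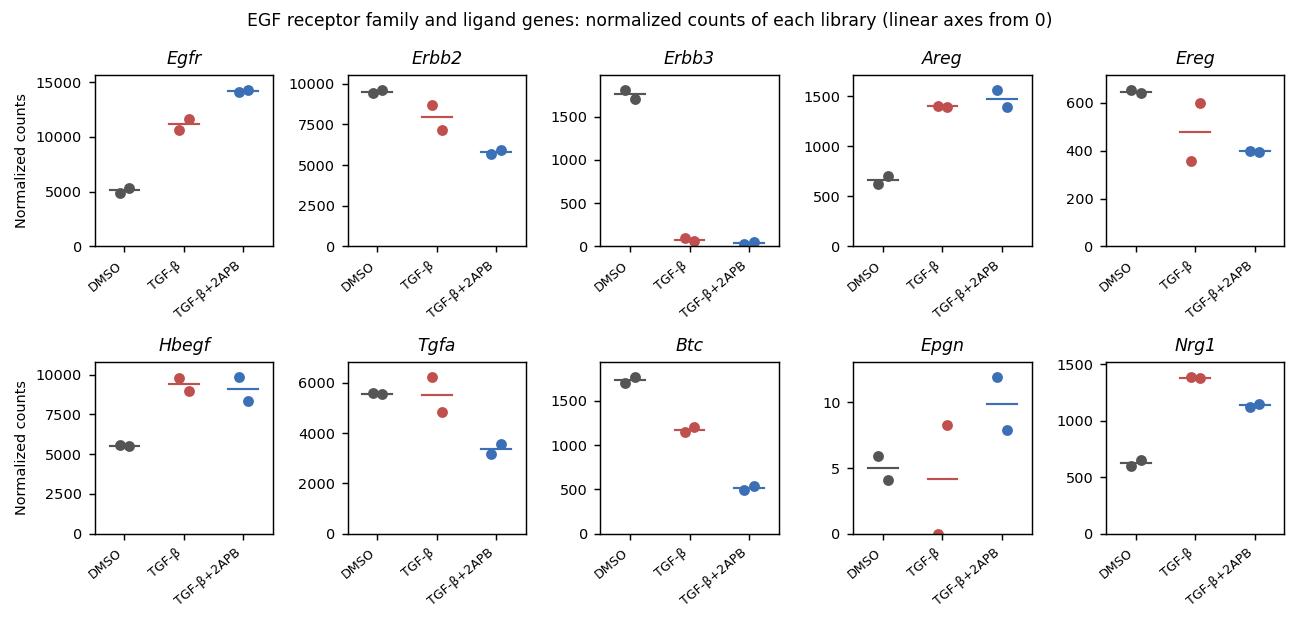
Normalized counts (vertical axes, linear from 0, a separate scale for each gene) of the 10 genes in the 3 groups; each point is 1 library and each bar the mean of 2 replicates. Egfr stands at 4918 and 5303 under DMSO and 14078 and 14261 under TGF-β+2APB, Erbb3 drops from 1804 and 1704 to under 100 in all 4 treated libraries, and Btc steps down in each group.

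Egfr, the receptor for most ligands of the set (chr11:16752203-16918158 on the plus strand of GRCm38), was the one receptor that rose. It stood at 4918 and 5303 normalized counts in the DMSO replicates, at 10671 and 11617 under TGF-β and at 14078 and 14261 under TGF-β+2APB. Both treated groups were above DMSO without overlap, and TGF-β+2APB was above TGF-β. The log2 difference from DMSO was 1.12 under TGF-β (SE 0.08, 2.18-fold, FDR 0.000327 by edgeR) and 1.47 under TGF-β+2APB (SE 0.08, 2.77-fold, FDR 8.51e-05). The further step on adding 2APB was smaller, 0.35 (SE 0.08, nominal 95% interval 0.19 to 0.50, FDR 0.0384), and it was called in 7 of 15 alternative analyses. Nominal intervals, here and below, were set from the SE by the normal distribution. With 2 replicates per group they are narrower than true 95% intervals. The FDR of that step was 0.112 without DMSO replicate 1, 0.113 without DMSO replicate 2, 0.216 without TGF-β+2APB replicate 1 and 0.187 without TGF-β+2APB replicate 2, and 0.0585 when libraries were scaled by their totals alone.

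Erbb2, the ligandless partner receptor (chr11:98412470-98437716, plus strand), moved the other way. Its normalized counts were 9407 and 9607 under DMSO, 8682 and 7184 under TGF-β and 5662 and 5933 under TGF-β+2APB. No group overlapped another, but the TGF-β replicates were spread widely. The log2 difference of TGF-β from DMSO was -0.26 (SE 0.11, FDR 0.101) and did not pass the test, although without TGF-β replicate 1 it was -0.40 with an FDR of 0.00451. Erbb2 fell under TGF-β+2APB, with a log2 difference of -0.71 from DMSO (SE 0.11, 1.64-fold lower, FDR 0.0027) and of -0.45 from TGF-β alone (SE 0.11, 1.37-fold lower, FDR 0.0396). The latter call was made in 8 of 15 alternatives, and its FDR was 0.113 without DMSO replicate 1, 0.113 without DMSO replicate 2, 0.197 without TGF-β+2APB replicate 1 and 0.146 without TGF-β+2APB replicate 2. The last 9 bases of Erbb2 overlap the end of Mien1 on the opposite strand, and the strand setting of the counting is not given in the sources used here. Mien1 differed by -0.44 under TGF-β (FDR 0.0294), by -0.42 under TGF-β+2APB (FDR 0.0268) and by 0.02 between the treated groups (FDR 0.933). Grb7, which encodes an adaptor that binds ERBB2, begins 8678 bases past the end of Erbb2, and its log2 differences were -0.72 (FDR 0.0126), -1.62 (FDR 0.000499) and -0.89 (FDR 0.0165) in the same order. The calls for Grb7 under TGF-β and between the treated groups were lost without some libraries, as given with the adaptors below.

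Erbb3, the neuregulin receptor (chr10:128567523-128589652, minus strand), showed the largest difference of the set. The DMSO replicates had 1804 and 1704 normalized counts, the TGF-β replicates 93.5 and 60.2, and the TGF-β+2APB replicates 33.7 and 47.4. Each treated library held a small fraction of the DMSO level, and the treated groups did not overlap. The log2 difference from DMSO was -4.51 under TGF-β (SE 0.26, 22.8-fold lower, FDR 0.00016) and -5.43 under TGF-β+2APB (SE 0.28, 43.2-fold lower, FDR 6.8e-05), and both calls were made in all 15 alternatives. By size of fall Erbb3 ranked 125 and 163 among the 13353 tested genes. The treated groups differed by -0.92 (SE 0.27, nominal 95% interval -1.45 to -0.40, FDR 0.0694), which did not pass. That difference was called by DESeq2 (FDR 0.0152) and without TGF-β replicate 2 (FDR 0.0117). The hepatocyte markers moved with Erbb3. All 6 were called lower in both comparisons with DMSO, and Alb stood at 31570 and 28821 normalized counts under DMSO, 93.5 and 41.5 under TGF-β and 39.6 and 19.7 under TGF-β+2APB. The sum of the list fell less than Alb and was still 14437 to 19845 under TGF-β and 8622 to 11572 under TGF-β+2APB. The median log2 difference from DMSO over the list was -7.18 under TGF-β and -10.58 under TGF-β+2APB. The part of the hepatocyte markers in the result was not tested.

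Among all tested genes, those closest to Erbb3 in their pattern over the 6 libraries were Cyp3a16, Gsta3 and Gstm1, which encode a cytochrome P450 and glutathione transferases. Likeness was the root mean square difference of log2(normalized count + 1) after centring each gene on its own mean, and the values were 0.0761, 0.102 and 0.164. Gsta3 had 2500 and 2258 normalized counts under DMSO, 107 and 85.1 under TGF-β and 45.5 and 59.2 under TGF-β+2APB. With a pseudocount of 10 the same 3 genes were nearest, in another order. All libraries of a pattern are shared between the genes compared, so this is a description of the profile only. Cyp3a16, Gsta3 and Gstm1 belong to families of similar genes, and reads shared between family members could be split by the counting.

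**Figure D2:**
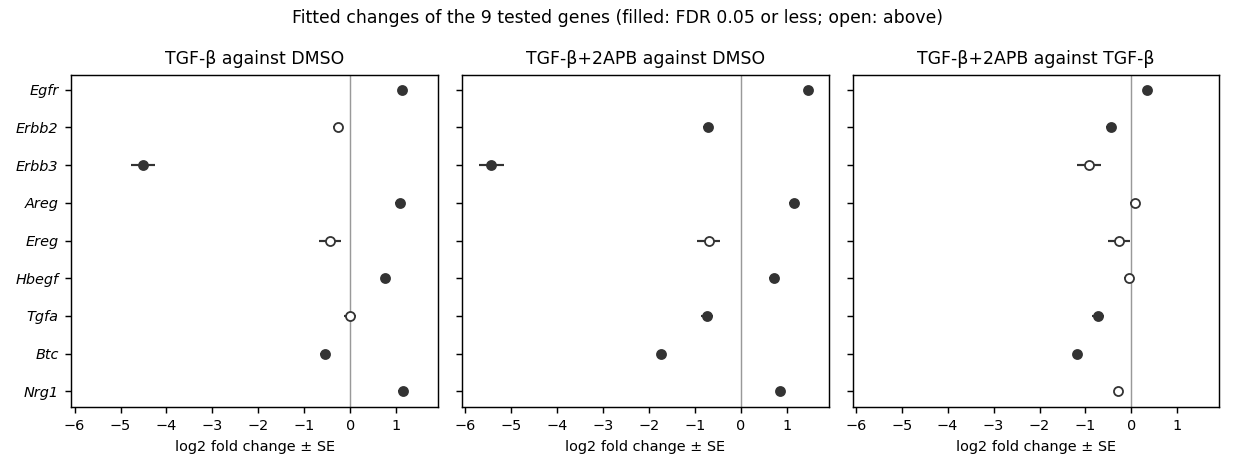
Fitted log2 differences (horizontal axis) of the 9 tested genes in the 3 comparisons, with bars of 1 SE; filled points have an FDR of 0.05 or less and open points a higher one. Erbb3 lies at -4.51 and -5.43 against DMSO, while Egfr, Areg and Nrg1 lie between 0.86 and 1.47, and in the right panel Btc lies lowest at -1.18.

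The ligands split into those that rose under TGF-β and those that did not. Areg (amphiregulin) had 621 and 709 normalized counts under DMSO, 1408 and 1390 under TGF-β and 1562 and 1393 under TGF-β+2APB. Both treated groups lay above DMSO, and they overlapped each other. Areg rose by 1.07 on the log2 scale under TGF-β (SE 0.11, 2.10-fold, FDR 0.00103) and by 1.15 under TGF-β+2APB (SE 0.11, 2.22-fold, FDR 0.000496). The treated groups differed by 0.08 (nominal 95% interval -0.13 to 0.29, FDR 0.652), and by -0.04 without TGF-β+2APB replicate 1.

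Hbegf, the heparin-binding ligand, was the most abundant ligand per length in every group. It had 5564 and 5489 normalized counts under DMSO, 9808 and 8971 under TGF-β and 9814 and 8308 under TGF-β+2APB. As with Areg, the treated groups were above DMSO and overlapped each other. Hbegf rose by 0.76 under TGF-β (SE 0.10, 1.70-fold, FDR 0.00288) and by 0.71 under TGF-β+2APB (SE 0.10, 1.64-fold, FDR 0.00248). Between the treated groups the log2 difference was -0.05 (nominal 95% interval -0.25 to 0.15, FDR 0.765), and it was 0.02 without TGF-β replicate 1 and 0.06 without TGF-β+2APB replicate 2.

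Nrg1, the one ligand of the set that binds ERBB3, lies on chromosome 8 (31814551 to 32884029, minus strand) and rose while its receptor transcript fell. Its normalized counts were 601 and 653 under DMSO, 1383 and 1382 under TGF-β and 1125 and 1148 under TGF-β+2APB. The 3 groups did not overlap, under TGF-β highest. Nrg1 rose by 1.14 on the log2 scale under TGF-β (SE 0.09, 2.20-fold, FDR 0.000418) and by 0.86 under TGF-β+2APB (SE 0.09, 1.81-fold, FDR 0.000687). The difference between the treated groups, -0.28 (SE 0.09, nominal 95% interval -0.45 to -0.11, FDR 0.0819), did not pass the test in any of 15 alternatives.

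Tgfa, another EGFR ligand (chr6:86195223-86275719, plus strand), was lower in the group that received 2APB than in both others. It had 5574 and 5556 normalized counts under DMSO, 6210 and 4854 under TGF-β and 3158 and 3553 under TGF-β+2APB. The TGF-β replicates lay on either side of the DMSO pair, and both TGF-β+2APB replicates were below all other libraries. The log2 difference of TGF-β from DMSO was -0.01 (nominal 95% interval -0.27 to 0.25, FDR 0.967), and 0.16 without TGF-β replicate 2. Tgfa fell under TGF-β+2APB, with a log2 difference of -0.73 from DMSO (SE 0.13, 1.66-fold lower, FDR 0.0059), which was called in all 15 alternatives, and of -0.72 from TGF-β (SE 0.13, 1.65-fold lower, FDR 0.0202). The difference of the treated groups is itself the test of whether TGF-β+2APB and TGF-β departed from DMSO unequally. It was called in 9 of 15 alternatives, with an FDR of 0.0665 without DMSO replicate 1, 0.0669 without DMSO replicate 2, 0.11 without TGF-β+2APB replicate 1 and 0.0593 without TGF-β+2APB replicate 2.

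Btc (betacellulin) was the member whose stepwise fall held best. It had 1696 and 1762 normalized counts under DMSO, 1145 and 1204 under TGF-β and 499 and 539 under TGF-β+2APB. The groups were separate and in this order. Its log2 difference from DMSO was -0.56 under TGF-β (SE 0.09, 1.47-fold lower, FDR 0.00482), a call lost only without DMSO replicate 2 (FDR 0.0549), and -1.74 under TGF-β+2APB (SE 0.09, 3.33-fold lower, FDR 7.4e-05). Between the treated groups it was -1.18 (SE 0.09, 2.26-fold lower, FDR 0.00317), called in all 15 alternatives. The genes nearest to Btc in pattern over the 6 libraries were Pilrb2, Parp14 and Tspan2, with root mean square differences of 0.0428, 0.0494 and 0.062. Parp14, for example, had 1903 and 1862, 1340 and 1388, and 570 and 625 normalized counts in the 3 groups. With a pseudocount of 10 Pros1 took the place of Tspan2.

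Ereg (epiregulin) could not be placed with certainty, since its TGF-β replicates disagreed. It had 653 and 641 normalized counts under DMSO, 357 and 600 under TGF-β and 400 and 395 under TGF-β+2APB. TGF-β replicate 1 was below and TGF-β replicate 2 above both TGF-β+2APB libraries, and all treated libraries were below DMSO. None of the log2 differences passed, at -0.44 under TGF-β (SE 0.25, FDR 0.209), -0.70 under TGF-β+2APB (SE 0.25, FDR 0.057) and -0.27 between the treated groups (SE 0.25, FDR 0.496). Without TGF-β replicate 2 these were -0.86 (FDR 0.00458) for TGF-β and 0.16 between the treated groups, and without TGF-β replicate 1 the latter was -0.59 (FDR 0.0236). The TGF-β+2APB difference had an FDR of 0.00238 without TGF-β replicate 1, 0.00285 without TGF-β replicate 2 and 0.0316 by DESeq2. Epgn (epigen) was near the limit of detection, with 6 and 4 deposited counts under DMSO, 0 and 8 under TGF-β and 12 and 8 under TGF-β+2APB, and it was not tested. A count of 0 allows up to 3 counts, for counting error only, and the limit may be higher since all deposited values were even. No difference was read from counts this low.

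To compare levels between genes, normalized counts were divided by the length of the union of each gene's exons in kb. Per kb, the order in DMSO was Erbb2 (1825 ± 27.2, SD, n = 2), Hbegf (1143 ± 10.96), Tgfa (857 ± 2.03), Areg (547 ± 50.9), Egfr (451 ± 24.1), Btc (383 ± 10.3), Erbb3 (292 ± 11.7), Ereg (157 ± 2.07), Nrg1 (60.6 ± 3.51) and Epgn (2.77 ± 0.69), and no neighbours in that order overlapped. With TGF-β, Hbegf (1942 ± 122) came first and was followed by Erbb2 (1523 ± 203), Areg (1152 ± 10.5), Egfr (984 ± 59.1) and Tgfa (852 ± 148), of which Egfr and Tgfa overlapped. Below these stood Btc (260 ± 9.11), then Nrg1 (134 ± 0.065) and Ereg (116 ± 41.7), which overlapped, then Erbb3 (12.8 ± 3.92). With TGF-β+2APB, Hbegf (1874 ± 220) was followed by Egfr (1251 ± 11.4) and Areg (1216 ± 98.4), which overlapped, by Erbb2 (1113 ± 36.7), Tgfa (517 ± 43.1), Btc (115 ± 6.21), Nrg1 (110 ± 1.62), Ereg (96.2 ± 0.912) and Erbb3 (6.73 ± 1.61). Here Btc overlapped Nrg1, and Erbb3 overlapped Epgn (5.47 ± 1.56). Among 12718 tested genes with a length, Erbb3 moved from percentile 39.5 in DMSO to 9.2 and 4.7, and Egfr from percentile 49.6 to 69.9 and 75.4. When the longest transcript served as length, Hbegf had the higher mean in DMSO as well (1912 against 1897 for Erbb2), although their libraries overlapped, and Nrg1 stood above Btc under TGF-β+2APB. With that length Tgfa (1222 ± 212) ranked above Areg (1152 ± 10.5) and Egfr (1092 ± 65.5) under TGF-β, and its libraries overlapped those of both.

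Within the 3 receptors the make-up shifted from Erbb2 toward Egfr while the sum lay between 2335 and 2624 per kb in all libraries. Erbb2 made up 71.1%, 60.3% and 46.9% of the summed receptor level under DMSO, TGF-β and TGF-β+2APB. Egfr made up 17.6%, 39.2% and 52.8%, and Erbb3 made up 11.4%, 0.503% and 0.283%. The ratio of Egfr to Erbb2 per kb was 0.24 and 0.254 in the DMSO libraries, 0.565 and 0.744 under TGF-β and 1.14 and 1.11 under TGF-β+2APB, so that Egfr was above Erbb2 in both libraries that received 2APB. These ratios come from the counts tested above and were not tested again. The summed ligand level was 3116 and 3185 per kb under DMSO, 4618 and 4298 under TGF-β and 4125 and 3743 under TGF-β+2APB. Hbegf and Areg accounted for 36.3% and 17.4% of it under DMSO, 43.6% and 25.9% under TGF-β and 47.6% and 30.9% under TGF-β+2APB. Tgfa went from 27.2% to 19.1% and 13.2%, and Btc from 12.1% to 5.84% and 2.93%.

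**Figure D3:**
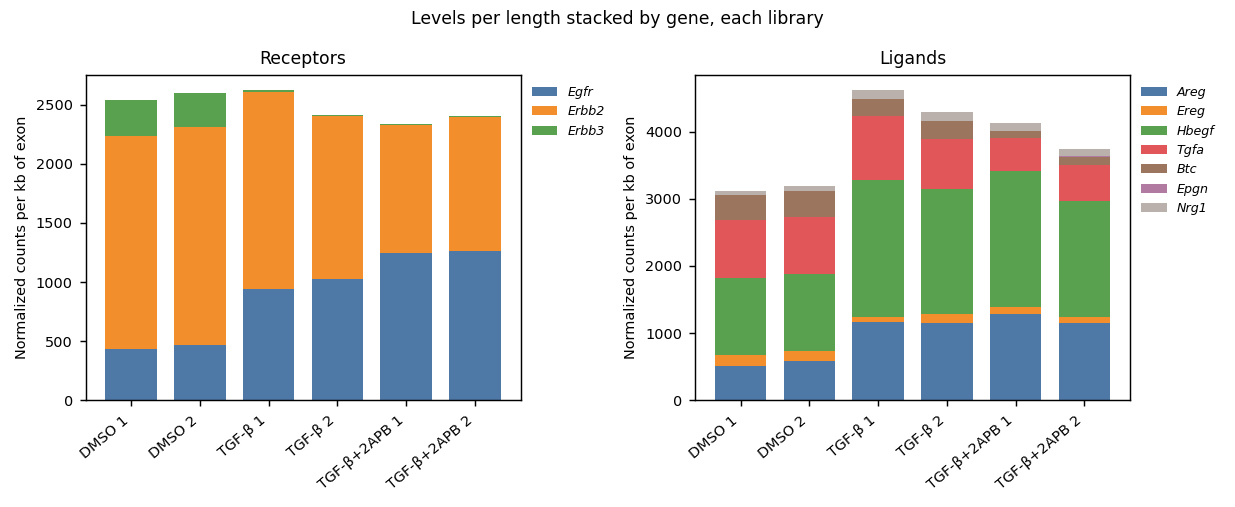
Normalized counts per kb of exon (vertical axes) of the 3 receptors (left) and the 7 ligands (right), stacked by gene in each of the 6 libraries. The receptor bars stay between 2335 and 2624 while the Egfr share grows from 17.6% to 52.8%, and the ligand bars are taller in all treated libraries than under DMSO, with most of the added height from Hbegf and Areg.

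Areg, Ereg, Epgn and Btc lie together on chromosome 5, in 375.5 kb from 91027464 to 91402994, the first 3 on the plus strand and Btc on the minus strand. Areg and Btc moved in opposite directions. Areg (chr5:91139599-91148432) rose in both comparisons with DMSO, Btc (chr5:91357261-91402994) fell in both, and Ereg (chr5:91074622-91093646), 65.0 kb before Areg, did not pass. Areg and Btc are not neighbours, since Gm19619 (chr5:91257571-91283421) lies between them and did not pass in either comparison (FDR 0.6 and 0.748). The difference between Areg and Ereg was not tested. The ratio of Areg to Btc per kb was 1.43 on average under DMSO, 4.44 under TGF-β and 10.6 under TGF-β+2APB. Within 250 kb of the cluster the table held 11 genes, of which 9 were tested. The chemokine gene Cxcl1 fell in both, with log2 differences of -2.06 under TGF-β (SE 0.35, FDR 0.00593) and -3.62 under TGF-β+2APB (SE 0.37, FDR 0.000675). Cxcl15 fell as well, at -3.47 (FDR 0.0292) and -4.78 (FDR 0.0112), but from a low level, with 8 deposited counts or fewer in the treated libraries. Cxcl2 differed by -4.45 under TGF-β (FDR 0.05 after rounding). It did not pass under TGF-β+2APB (-1.73, FDR 0.266), where the replicates disagreed at 2.0 and 78.9 normalized counts. Mthfd2l, between the chemokine genes and Epgn, differed by 0.20 (FDR 0.224) and 0.21 (FDR 0.173).

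**Figure D4:**
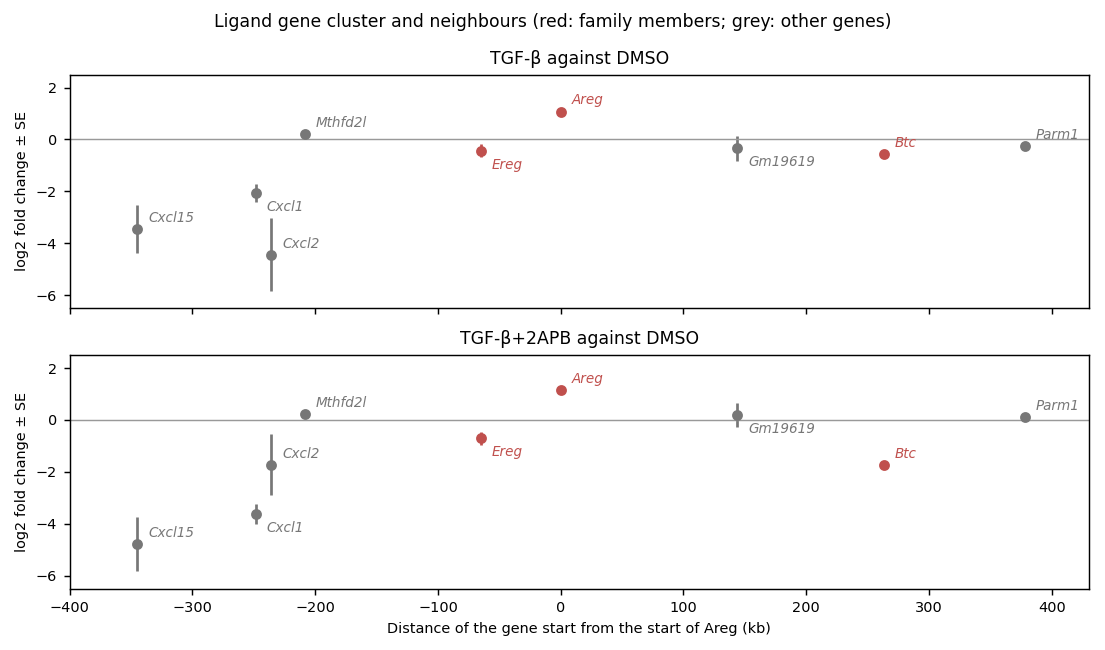
Log2 differences (vertical axes, bars of 1 SE) of the 9 tested genes in and around the chromosome 5 ligand cluster, by distance of each gene's start from that of Areg in kb (horizontal axis), for TGF-β (top) and TGF-β+2APB (bottom) against DMSO; members of the family are red and other genes grey. Areg lies at 1.07 and 1.15, Btc at -0.56 and -1.74, and the chemokine genes to the left lie below 0.

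Since Areg and Btc are members of one cluster that moved in opposite directions, and Egfr is the receptor that rose, the 250 bases before their starts are shown from RefSeq on GRCm38.p6, 5′ to 3′ on the strand of the gene, at chr5:91139349-91139598 (plus), chr5:91402995-91403244 (minus) and chr11:16751953-16752202 (plus). Promoters of 6 of the 10 members were in the table used. Capitals mark matches, on either strand, to a SMAD element (CAGAC), an AP-1 element (TGANTCA), a cAMP response element (TGACGTCA) or an E-box (CAGGTG).
Areg: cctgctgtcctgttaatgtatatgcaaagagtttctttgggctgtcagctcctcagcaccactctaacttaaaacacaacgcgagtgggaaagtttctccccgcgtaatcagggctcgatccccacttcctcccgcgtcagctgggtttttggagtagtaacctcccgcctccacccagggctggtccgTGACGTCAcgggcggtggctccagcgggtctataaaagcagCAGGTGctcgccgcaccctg
Btc: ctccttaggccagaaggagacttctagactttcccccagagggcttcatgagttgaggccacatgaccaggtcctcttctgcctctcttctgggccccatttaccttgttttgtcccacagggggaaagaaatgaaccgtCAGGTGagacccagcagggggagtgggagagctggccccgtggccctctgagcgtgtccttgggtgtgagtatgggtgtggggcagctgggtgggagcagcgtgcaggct
Egfr: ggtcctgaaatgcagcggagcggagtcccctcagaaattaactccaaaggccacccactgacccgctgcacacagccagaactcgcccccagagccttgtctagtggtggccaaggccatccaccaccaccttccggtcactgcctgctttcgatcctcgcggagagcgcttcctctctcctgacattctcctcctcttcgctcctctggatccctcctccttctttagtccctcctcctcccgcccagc
In Areg the cAMP response element ended 54 bases and the E-box 15 bases before the start. In Btc an E-box ended 105 bases before the start, and no match was present in the Egfr window. Of the promoters not shown, that of Tgfa held a SMAD element and an E-box, that of Epgn an E-box and that of Erbb2 no match. No match overlapped another. Of 32851 promoter windows of the same length, 1.55% held the cAMP response element, 17.2% the E-box, 42.2% the SMAD element and 6.75% the AP-1 element. A match is only a match of letters, and no binding was measured here.

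Of the other genes of the pathway, in lists by role, 60 of 64 were tested. Of these 26 changed under TGF-β (15 higher and 11 lower, median 0.04), 37 under TGF-β+2APB (14 higher and 23 lower, median -0.04) and 19 between the treated groups (4 higher and 15 lower, median -0.07), beside the shares of all genes given above (41.5%, 52.8% and 17.5%). Leaving out single libraries moved the first and the last of these counts by over 1.5 times. With TGF-β the count was 15 without DMSO replicate 2 and 45 without TGF-β replicate 2, beside 21.7% and 57.1% of all genes. Between the treated groups it was 10 without DMSO replicate 1, 9 without DMSO replicate 2, 34 without TGF-β replicate 2, 6 without TGF-β+2APB replicate 1 and 12 without TGF-β+2APB replicate 2. The shares of all genes at these settings were 6.46%, 6.26%, 40.4%, 7.38% and 9.54%, so they moved the same way as the counts.

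Among the remaining family members Nrg4, a neuregulin that binds ERBB4, fell in all 3 comparisons. It had 303 and 353 normalized counts under DMSO, 121 and 160 under TGF-β and 71.3 and 71.0 under TGF-β+2APB, in separate groups. The log2 differences were -1.23 (SE 0.23, FDR 0.00809), -2.20 (SE 0.23, FDR 0.000752) and -0.98 (SE 0.23, FDR 0.0396). The first was lost without DMSO replicate 2 (FDR 0.0742). The last held only without TGF-β replicate 1, with FDR values of 0.109 and 0.113 without DMSO replicate 1 or 2, 0.057 without TGF-β replicate 2, and 0.113 and 0.103 without TGF-β+2APB replicate 1 or 2. Egf, at 87.7 to 195 normalized counts, passed no test. Nrg2 and Nrg3 were below the filter, and Erbb4 was not among the entries.

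The proteases and partners that release the ligands changed in both directions. Of 7 tested, 2 were higher and 2 lower under TGF-β (median 0.06), and 2 higher and 3 lower under TGF-β+2APB (median 0.01). Between the treated groups 1 was lower (median -0.07). Over all genes 41.5%, 52.8% and 17.5% were called in these comparisons. Adam12, a metalloprotease typical of mesenchymal cells, rose from 3326 and 3477 normalized counts in DMSO to 12036 and 12389 under TGF-β and to 17365 and 14387 under TGF-β+2APB. Its log2 differences from DMSO were 1.84 (SE 0.11, FDR 0.000169) and 2.22 (SE 0.11, FDR 6.4e-05). Of the 6 fibroblast markers 3 were tested, and 2 of these were called higher under TGF-β and 3 under TGF-β+2APB. The summed levels of that list are given above, and the part of these markers in the Adam12 result was not tested. Adam15 rose by 0.63 (FDR 0.00385) and 0.51 (FDR 0.00564), the latter lost without DMSO replicate 2 (FDR 0.0549). Adam10 and Adam17, the main sheddases of the EGF family, were lower by smaller steps. Adam10 fell by 0.50 under TGF-β (FDR 0.0139, but 0.0832 and 0.092 without DMSO replicate 1 or 2). It fell by 0.47 under TGF-β+2APB (FDR 0.0141, but 0.075 and 0.0873 without DMSO replicate 1 or 2 and 0.0938 without TGF-β+2APB replicate 2). Adam17 fell by 0.30 under TGF-β (FDR 0.0193), a call lost without DMSO replicate 1 (0.169), DMSO replicate 2 (0.0951), TGF-β+2APB replicate 1 (0.0732) or TGF-β+2APB replicate 2 (0.0733). Adam9 fell by 0.51 under TGF-β+2APB against DMSO (FDR 0.00764, but 0.0622 without DMSO replicate 2 and 0.0515 without TGF-β+2APB replicate 1). Against TGF-β it fell by 0.57 (FDR 0.018, but 0.0659 and 0.0667 without DMSO replicate 1 or 2 and 0.0898 without TGF-β+2APB replicate 1).

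Of 10 tested inhibitors and degradation factors of the receptors, 2 were higher and 2 lower under TGF-β (median -0.05). Under TGF-β+2APB 2 were higher and 5 lower (median -0.30), and between the treated groups 1 was higher and 2 lower (median -0.07). The shares of all genes called were 41.5%, 52.8% and 17.5% in the same order. Cblb, a ubiquitin ligase that targets active EGFR, rose from 2938 and 2880 normalized counts in DMSO to 5115 and 5296 under TGF-β and 7379 and 6870 under TGF-β+2APB, by 0.84 (SE 0.07, FDR 0.000625) and 1.29 (SE 0.07, FDR 9.1e-05). Its step between the treated groups was 0.45 (FDR 0.0144), lost without DMSO replicate 1 (0.0654), DMSO replicate 2 (0.0658), TGF-β+2APB replicate 1 (0.123) or TGF-β+2APB replicate 2 (0.0509). Errfi1, whose product inhibits the EGFR kinase, fell against DMSO in both groups, at -0.74 (SE 0.09, FDR 0.00174) and -0.81 (SE 0.09, FDR 0.000797). Cblc fell to -2.84 (FDR 0.00239) and -3.05 (FDR 0.00124) on the same scale from a low level of 60.9 and 55.8 normalized counts. Rnf41, the ubiquitin ligase of ERBB3, rose by 0.43 under TGF-β (FDR 0.017, but 0.129 without DMSO replicate 2) and by 0.58 under TGF-β+2APB (FDR 0.00435). Between the treated groups Lrig1, a receptor-binding inhibitor, fell by 0.65 (FDR 0.0116), a call lost without DMSO replicate 2 (0.0502), TGF-β+2APB replicate 1 (0.0761) or TGF-β+2APB replicate 2 (0.0513). Socs5 fell by 0.83 (FDR 0.0109), lost without TGF-β+2APB replicate 1 (0.0614).

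Among 25 adaptors and signal transducers, 4 were higher and 3 lower under TGF-β (median -0.02), and 5 higher and 6 lower under TGF-β+2APB (median 0.08). Between the treated groups 2 were higher and 4 lower (median 0.00). These counts stand beside 41.5%, 52.8% and 17.5% of all genes. Gab2, a docking protein for PI3 kinase and SHP2, rose from 2718 and 2698 normalized counts in DMSO to 7092 and 6421 under TGF-β and 8420 and 8802 under TGF-β+2APB, by 1.32 (SE 0.08, FDR 0.000197) and 1.67 (SE 0.08, FDR 6.21e-05). Ptpn11, which encodes SHP2, rose by 0.56 under TGF-β (FDR 0.00273), and Map2k1, which encodes the ERK kinase MEK1, by 0.84 under TGF-β+2APB (FDR 0.000638). Stat3, a transcription factor activated by these receptors among others, had 18841 and 18138 normalized counts under DMSO, 12728 and 10486 under TGF-β and 4944 and 5708 under TGF-β+2APB. Its log2 difference was -0.67 under TGF-β (FDR 0.00782), -1.80 under TGF-β+2APB (FDR 0.000177) and -1.12 between the treated groups (FDR 0.0059), and of these calls only the first was lost without a library, at 0.0632 and 0.05 without DMSO replicate 1 or 2, the latter just above the threshold before rounding. For Grb7 the call under TGF-β was lost without DMSO replicate 1 (FDR 0.0806) or 2 (FDR 0.0611). Its call between the treated groups was lost without DMSO replicate 1 (0.0549), DMSO replicate 2 (0.0555) or TGF-β+2APB replicate 1 (0.0711). The rises of Map2k2 (0.46, FDR 0.0248) and Gab2 (0.35, FDR 0.0364) between the treated groups were lost without either DMSO replicate (0.0841 and 0.0852, and 0.123 and 0.124) and without either TGF-β+2APB replicate (0.15 and 0.142, and 0.196 and 0.218).

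The 16 targets of ERK signalling did not move as one. With TGF-β 7 were higher and 3 lower (median 0.35), beside 21.8% and 19.7% of all genes. Under TGF-β+2APB 5 were higher and 8 lower (median -0.30), beside 25.6% and 27.2%. Between the treated groups 1 was higher and 7 lower (median -0.71), beside 6.58% and 10.9%. Fos and Egr1, immediate early transcription factors, fell most. Fos had 2673 and 1667 normalized counts under DMSO, 183 and 74.7 under TGF-β and 67.3 and 105 under TGF-β+2APB, with log2 differences from DMSO of -4.07 (SE 0.50, FDR 0.00196) and -4.66 (SE 0.52, FDR 0.00088). For Egr1 they were -2.78 (SE 0.32, FDR 0.00163) and -3.66 (SE 0.34, FDR 0.00045). Myc rose by 1.36 under TGF-β+2APB (SE 0.07, FDR 5.75e-05) and Dusp5, a nuclear ERK phosphatase, by 1.28 under TGF-β (SE 0.07, FDR 0.000165). Dusp4, another phosphatase of the group, climbed in both steps, from 6386 and 6111 to 11339 and 10619 and then to 21938 and 19773, by 1.74 against DMSO under TGF-β+2APB (FDR 6.43e-05) and by 0.93 between the treated groups (FDR 0.00417). Etv4, an ETS transcription factor, had 865 and 983 normalized counts under DMSO, 2918 and 2395 under TGF-β and 729 and 965 under TGF-β+2APB. Only the TGF-β group was high. Etv4 rose by 1.52 under TGF-β (SE 0.17, FDR 0.00158) and fell by 1.65 when 2APB was added (SE 0.18, FDR 0.00556), with a difference of -0.13 from DMSO in the latter group (FDR 0.576). Spry4, a feedback inhibitor of receptor signalling, had 1048 and 1000, 610 and 481, and 160 and 166 normalized counts in the 3 groups, and fell by 1.74 between the treated groups (SE 0.15, FDR 0.00386).

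**Figure D5:**
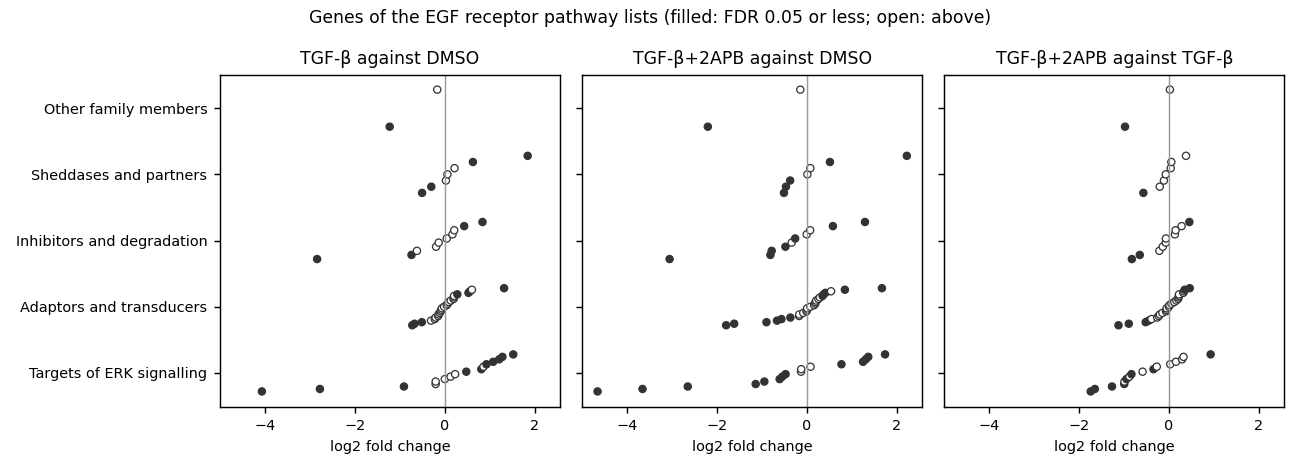
Log2 differences (horizontal axes) of the tested genes of 5 pathway lists in the 3 comparisons, 1 point a gene, filled where the FDR is 0.05 or less. Most adaptors lie near 0, while ERK targets spread from -4.07 (Fos) to 1.52 (Etv4) under TGF-β. Between the treated groups 7 of 16 ERK targets are filled on the left side, where 10.9% of all genes were called lower.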

How the data were processed

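RNA of NMuMG cells was sequenced in 6 libraries, 2 replicates in each of 3 groups, which were taken from the sample labels. The authors deposited raw, unscaled counts for the 18512 entries of the table used here. They checked single-end reads with FastQC 0.11.2, aligned them with TopHat2 2.0.13 and counted them with featureCounts. The submitters' processing notes name mm10, while the paper's methods name a human build, and the symbols are mouse symbols. The annotation, strand setting and treatment of reads with several matches are not given in the sources used here.

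The tools were edgeR 4.0.16 and limma 3.58.1 under R 4.3.3. The quasi-likelihood model took TMM factors and all 3 groups in one fit, without covariates, over genes averaging 20 normalized counts or more. Benjamini-Hochberg FDR values were taken over all 13353 genes, with 0.05 as threshold. The script was tested on simulated data. DESeq2 1.42.0, RLE and library-size scaling, no filter and a minimum of 10 counts in every library, the labels' replicate number as block, only the 4 libraries compared, halved counts, a stricter FDR, a log2 minimum of 1 and each library left out were tried. Where a group kept 1 library, it was assumed to vary like the others.

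The members and lists were chosen with earlier results of these data known. Named pathway genes are, per list and comparison, the 2 called higher and the 2 called lower with the largest log2 difference. Pattern neighbours are the 3 genes nearest to the receptor and the ligand whose group means differ most. Exon lengths and positions came from GENCODE M21 (GRCm38), which matched 17551 entries (94.81%) by symbol. The table holds 25 entries with a date in place of a name, and 4 that share a name. The depth of 71840570 to 79473182 counts per library sets the precision, and the evenness of all counts means that counting error may be larger than the counts imply. No replicate pair looked like one library deposited again, since the halved counts within pairs gave a chi-square per degree of freedom of 3.39 to 61.5.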

Additional observations from a re-analysis of the deposited data

How the results depend on the processing

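Of 15 alternatives at the same FDR, every one called Egfr, Erbb3, Areg, Hbegf and Nrg1 with TGF-β, and these with Erbb2, Tgfa and Btc in TGF-β+2APB against DMSO. Between the treated groups only the call for Btc was made in all 15. The number of members called there was 2 without a filter, 1 with only the 4 libraries compared, 1 at an FDR of 0.01 and 1 with a log2 minimum of 1, and from 1 to 5 when single libraries were left out. The shares of all genes called at these settings were 10.6%, 6.54%, 4.5% and 6.29%, and 6.26% to 40.4% with single libraries left out, against 17.5% in the reported fit. With a log2 minimum of 1 the number for TGF-β+2APB against DMSO was 4, beside 22.7% of all genes. Of the pathway genes, a log2 minimum of 1 left 10 with TGF-β, 15 with TGF-β+2APB and 4 between the treated groups. The shares of all genes at that minimum were 15.9%, 22.7% and 6.29%. Between the treated groups 10 pathway genes were called with only the 4 libraries compared and 6 at an FDR of 0.01. These stand beside 6.54% and 4.5% of all genes. Leaving out single libraries gave 15 to 45 with TGF-β and 6 to 34 between the treated groups.

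Differences that had not passed the test changed sign in 8 cases. Between the treated groups Areg was at -0.037 without TGF-β+2APB replicate 1 (-0.037 to 0.156 over the libraries left out), Ereg at 0.156 without TGF-β replicate 2 (-0.592 to 0.156), and Hbegf at 0.017 without TGF-β replicate 1 and 0.060 without TGF-β+2APB replicate 2 (-0.207 to 0.060). Tgfa with TGF-β was at 0.158 without TGF-β replicate 2 (-0.191 to 0.158) and at 0.018 with only the 4 libraries compared and without either TGF-β+2APB replicate. With the longest transcript as length the share of Hbegf was 43.5%, 51.7% and 56.6%, and that of Egfr 18.6% in DMSO and 54.4% with TGF-β+2APB. The causes were not tested.

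The labels number the replicates, but whether the numbers pair the samples could not be settled from these data. The replicate difference of DMSO correlated at 0.15 with that of TGF-β and at -0.46 with that of TGF-β+2APB, and the treated groups at -0.26 with each other. With the number as a replicate block, 6, 8 and 1 members were called in the 3 comparisons, and 25, 36 and 14 pathway genes, beside 35.5%, 47.6% and 10.1% of all genes. With the numbers of TGF-β+2APB exchanged, an alternative added after the data had been seen, they were 6, 9 and 5, and 29, 38 and 21, beside 42.7%, 54.2% and 18.5% of all genes. Among the members Epgn alone was too low to be tested. Erbb3 held only 96 and 58 deposited counts under TGF-β and 34 and 48 under TGF-β+2APB. Depth therefore also limits the difference of Erbb3 between the treated groups. For Erbb2, Ereg and Tgfa the spread of the TGF-β pair sets the precision.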
